A study of Trametes versicolor with 3 samples.

Results

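Transcripts of Trametes versicolor mycelium on a poplar medium were set against those on a medium with glucose as the carbon source. The study title names poplar wood, and the sources used give no recipe for either medium. T. versicolor is a white-rot basidiomycete, a fungus that breaks down lignin together with the polysaccharides of wood. The strain came from a Chinese industrial culture collection (CICC 14001), and its mycelium was taken after 9 days, when the mat had reached 4 cm. The source names give the media, whereas the growth protocol reads PDA at 25 °C for each sample, so the groups rest on the source names. A further culture on PDA, a potato and dextrose agar, belongs to the study, and its levels are printed beside those of the compared media as a description, with no calls made against them. Polyadenylated RNA was sequenced from 1 library per medium. No difference therefore has a replicate check, no test between media could be made, and each value describes these libraries. The comparison took in 10636 of the 11480 gene models with a read in any of the 3 libraries, namely those that reached 1 RPKM on poplar or on glucose. RPKM is the number of reads divided by the length of the gene model and by the reads of the library, the scale on which levels of different genes can be set side by side. Whole mycelium was sampled, so a smaller share of hyphae of one kind and less RNA per hypha cannot be told apart.

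Reads assigned to a single place numbered 2.80 M for poplar, 2.68 M for glucose and 2.85 M for PDA. On a gene model of 1 kb, 3 reads came to 1.07 RPKM on poplar and 1.12 RPKM on glucose. Calls were made where RPKM plus 1 differed by at least 2-fold. On that scale 861 gene models, 8.1% of those measured, were higher on poplar and 884, or 8.31%, were lower, which makes 16.4% either way. The median log2 ratio was 0.08, the middle 50% of gene models lay between −0.30 and 0.42, and the middle 90% lay between −1.31 and 1.23. These shares are the background for the counts of each gene group. Groups were drawn by protein descriptions, and where the pattern changed when genes with a matching KEGG name were added, the wider group is given too. The share called was 23.7% of the 3897 gene models with a mean level under 10 RPKM and 11.3% of the 5044 between 10 and 100 RPKM. It was 14.8% between 100 and 1000 RPKM, and 12 gene models were higher and 12 lower among the 152 with a mean level of 1000 RPKM or more. Among gene models of at least 10 RPKM in the higher library, 420 (5.91%) were higher and 547 (7.69%) lower, 13.6% either way.

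**Figure D1:**
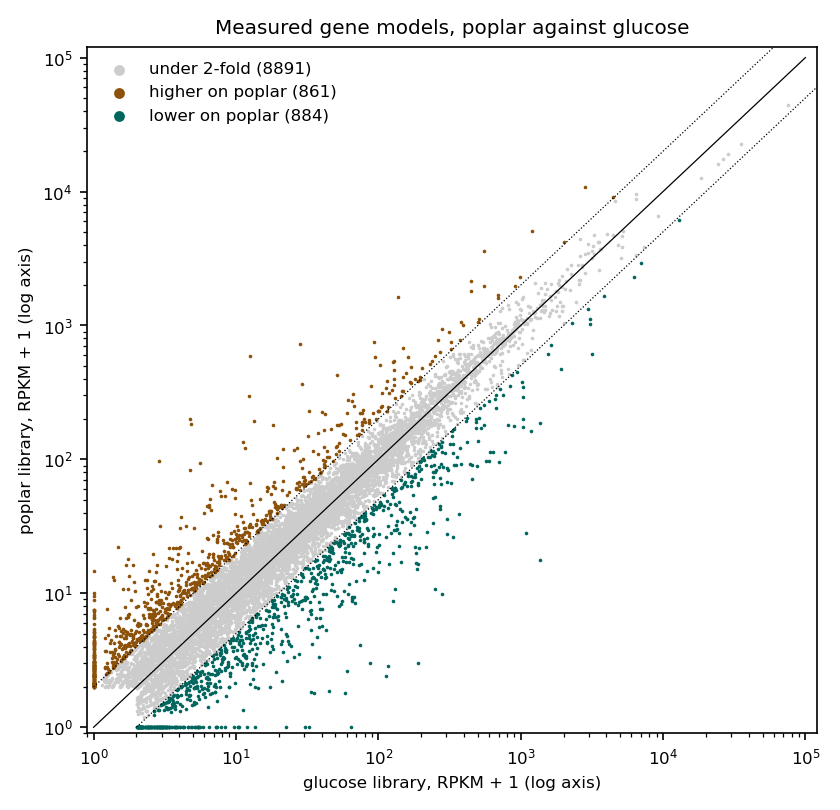
Level of each of the 10636 measured gene models in the glucose library (horizontal axis) and the poplar library (vertical axis), as RPKM + 1 on log axes, 1 point per gene model. The solid line marks equal levels, the dotted lines a 2-fold difference, and the 861 higher (brown) and 884 lower (green) gene models lie outside the dotted lines at each level.

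White-rot fungi open wood with secreted enzymes of several kinds. Heme peroxidases oxidise lignin with hydrogen peroxide, which oxidases make outside the cell from alcohols, aldehydes or sugars. Cellulases, lytic polysaccharide monooxygenases (LPMOs) and hemicellulases release sugars, transporters take them up, and cytochrome P450s and other intracellular oxygenases act on the aromatic fragments. In many fungi free glucose represses the genes for the breakdown of plant walls.

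Lignin peroxidases, which oxidise the non-phenolic units of lignin, were mostly higher on poplar. Of 11 gene models with this description, 8 were higher and 0 lower. The median log2 ratio was 1.83. Trave1_115214, ligninase C, had the highest level of the group, at 1965 RPKM on poplar, 553 on glucose and 111 on PDA. It was 3.56-fold higher (3.37 to 3.76), where the parentheses give the exact 95% interval from counting error alone. Trave1_134001 measured 387 RPKM on poplar, 114 on glucose and 46.4 on PDA and was 3.4-fold higher (3.01 to 3.86). Trave1_134927 measured 229 RPKM on poplar, 31.7 on glucose and 30.1 on PDA and was 7.21-fold higher (5.8 to 9.05). In both, poplar was the high library, as for ligninase C. Trave1_43848 also differed between the compared media, by 5.3-fold (4.36 to 6.48), but its level on poplar, 219 RPKM, was under its level on PDA, 277 RPKM. Trave1_134188 was 2.24-fold higher (1.93 to 2.61) than on glucose and had 12 reads on PDA. The group was not uniform: Trave1_134520 measured 98.5 against 96.95 RPKM, Trave1_133596 had only 48 against 55 reads, and isozyme LP7, Trave1_43559, was 1.69-fold lower (1.56 to 1.83). Reads were assigned uniquely, so the levels of near-identical peroxidase genes are uncertain.

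Manganese peroxidases, which oxidise lignin through chelated manganese, and versatile peroxidases went mostly the other way. Of 12 measured, 2 were higher and 6 lower. The median was −1.42, yet their summed level was 992 RPKM on poplar and 836 on glucose. The sum was carried by Trave1_113105, at 577 RPKM on poplar, 93.9 on glucose and 245 on PDA, which was 6.14-fold higher (5.4 to 7.0). Trave1_131350 measured 248 RPKM on poplar, 66.4 on glucose and 104 on PDA and was 3.73-fold higher (3.18 to 4.39). Each of these was higher on poplar than in both other libraries. The manganese-repressed peroxidase Trave1_26509, by contrast, measured 38.2 RPKM on poplar, 367 on glucose and 146 on PDA, with its highest level on glucose, and was 9.62-fold lower (7.95 to 11.7). Trave1_45167 and Trave1_51721 were lower as well, the latter with only 4 reads on poplar against 36 on glucose. Over gene models of at least 10 RPKM, 2 of 11 were higher and 5 lower, at a median of −0.91.

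**Figure D2:**
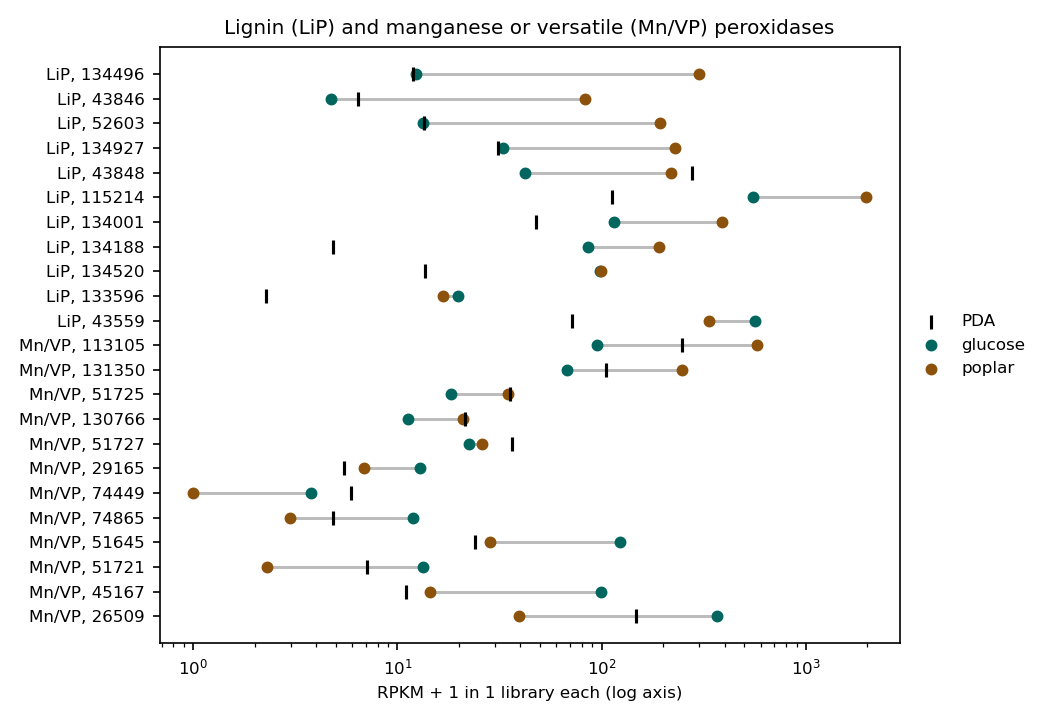
Level of each measured lignin peroxidase (LiP) and manganese or versatile peroxidase (Mn/VP) gene model, as RPKM + 1 on a log axis, with 1 library per medium: poplar in brown, glucose in green, PDA as a black bar. Of the 11 LiP genes 8 have the brown point at least 2-fold to the right of the green one, and of the 12 Mn/VP genes 6 have it at least 2-fold to the left.

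The oxidases that can feed these peroxidases with hydrogen peroxide split by family. Of 20 alcohol, aryl-alcohol, GMC and pyranose oxidases, 4 were higher and 2 lower, at a median log2 ratio of 0.13. Their summed level was 7234 RPKM on poplar, 3524 on glucose and 8810 on PDA. The group widened by KEGG names had 4 higher and 4 lower of 23. Alcohol oxidase Trave1_144880, an enzyme that turns an alcohol into an aldehyde, measured 4233 RPKM on poplar, 2002 on glucose and 795 on PDA. It was 2.11-fold higher (2.07 to 2.16) and had the eighth largest gain in RPKM of all gene models. A second alcohol oxidase-like gene, Trave1_167427, measured 376 RPKM on poplar, 165 on glucose and 149 on PDA and was 2.28-fold higher (2.1 to 2.48). Both had their highest level on poplar, whereas the sum of the group was highest on PDA. The copper radical oxidases behaved otherwise: none of 10 glyoxal and galactose oxidases was called, with ratios between −0.84 and 0.17. Glyoxal oxidase Trave1_118536 measured 161 RPKM on poplar, 158 on glucose and 27.1 on PDA. Its levels on poplar and glucose were within 1.02-fold (0.918 to 1.13) of each other. Of 7 laccases and other multicopper oxidases, 0 were higher and 2 lower. The second lower gene beside laccase I was Trave1_66247, described as Fet3, which in yeast is the oxidase of iron uptake, with 17 reads against 48.

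Genes grouped as cellulases were mostly lower on poplar than on glucose, and in both libraries their summed level was far above that on PDA. The group took in cellobiohydrolases, endoglucanases and also cellulose-growth-specific proteins, a name that gives no activity. Its 15 measured members summed to 7757 RPKM on poplar, 17552 on glucose and 748 on PDA. Of these, 2 were higher and 9 lower on poplar. The median log2 ratio was −1.23. One lower member, Trave1_54041, had 2 reads on glucose and 0 on poplar, and with at least 20 reads required the lower count was 8 of 14. The group widened by KEGG names had 3 higher and 13 lower of 36, and its median was −0.46. Cellobiohydrolase I Trave1_112433, which works from chain ends, was the most abundant, at 2317 RPKM on poplar, 6288 on glucose and 318 on PDA, and was 2.71-fold lower (2.65 to 2.78). Trave1_126211, also a cellobiohydrolase I, measured 171 RPKM on poplar, 484 on glucose and 11.3 on PDA and was 2.82-fold lower (2.58 to 3.09). The cellulose-growth-specific protein Trave1_143649 measured 1114 RPKM on poplar, 3051 on glucose and 121 on PDA and was 2.74-fold lower (2.62 to 2.86). In these 3 genes glucose had the highest level, poplar the middle and PDA the lowest. Cellobiohydrolase I Trave1_124636 had another order, with 893 RPKM on poplar, 313 on glucose and 45.2 on PDA. The other higher member of the group had its largest log2 ratio, 2.91. Endoglucanase Trave1_150878 was 2.5-fold lower (2.32 to 2.7), while the endoglucanase V-like Trave1_168288 measured 376 against 471 RPKM, 1.25-fold lower (1.13 to 1.39). The list of family 61 LPMOs and cellobiose dehydrogenase had 7 members, with 0 higher and 4 lower. Its sums were 2794 RPKM on poplar, 6065 on glucose and 269.5 on PDA. With at least 20 reads required, 0 of 6 were higher and 3 lower, at a median of −0.95. LPMOs cut crystalline cellulose by oxidation, and the member of highest level, Trave1_162999, measured 1326 RPKM on poplar, 2983 on glucose and 94.96 on PDA, 2.25-fold lower (2.15 to 2.36). β-Glucosidases, which split cellobiose into glucose, had 1 higher and 0 lower of 7, and the 1 higher gene, Trave1_55904, measured 352 RPKM on poplar, 87.2 on glucose and 241 on PDA and was 4.04-fold higher (3.67 to 4.46). By KEGG names 1 of 30 β-glucosidases was higher and 3 were lower.

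Enzymes of the hemicelluloses and pectins were mixed. Of 20 hemicellulases and esterases, 4 were higher and 3 lower. The median was 0.22, while the sum went the other way, at 2605 RPKM against 3956. The balance of the calls turned at a minimum of 10 RPKM, with 2 higher and 3 lower, with a pseudocount of 5, with 1 and 3, and in the group widened by KEGG names, with 6 and 10 of 39 and a median of 0.04. Feruloyl esterase Trave1_51628, which cuts the ester bonds between ferulic acid and arabinoxylan, measured 72.6 RPKM on poplar, 29.2 on glucose and 29.1 on PDA and was 2.49-fold higher (2.02 to 3.08). A second feruloyl esterase, Trave1_123745, was 2.6-fold higher (1.49 to 4.75). On the other side, mannanase Trave1_162093 measured 199.8 RPKM on poplar, 1043 on glucose and 62.5 on PDA and was 5.22-fold lower (4.82 to 5.65). Galactanase Trave1_143920, an arabinogalactan endo-hydrolase, measured 171 RPKM on poplar, 528 on glucose and 24.5 on PDA and was 3.09-fold lower (2.79 to 3.43). Both lower enzymes had their highest level on glucose. Of 9 pectin-degrading enzymes, 1 was higher and 3 lower, at a median of −0.45. In the group widened by KEGG names, 1 of 11 was higher and 3 lower, and the median was 0.30. Endo-polygalacturonase Trave1_172131, which cuts the pectin backbone, measured 20.8 RPKM on poplar, 2.37 on glucose and 0.319 on PDA and was 8.75-fold higher (4.01 to 22.6), while rhamnogalacturonase Trave1_73205 measured 84.04 RPKM on poplar, 199.9 on glucose and 17.99 on PDA and was 2.38-fold lower (2.08 to 2.73). Among 8 amylases and α-glucosidases, enzymes of starch, glucoamylase Trave1_37627 was the 1 lower gene, at 35.04 RPKM on poplar, 304 on glucose and 5.23 on PDA, 8.68-fold lower (7.4 to 10.2). The wider group by KEGG names held 42 genes, of which 6 were higher and 4 lower.

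Among the 36 measured gene models described by a numbered glycoside hydrolase family, 6 were higher and 4 lower. The median was 0.05, which became −0.02 after median-of-ratios scaling. Of the family 79 proteins, a family that includes enzymes removing glucuronic acid, Trave1_128124 measured 464 RPKM on poplar, 127 on glucose and 55.1 on PDA and was 3.64-fold higher (3.35 to 3.97). Trave1_27329 of the same family measured 7.29 RPKM on poplar, 53.6 on glucose and 13.3 on PDA and was 7.35-fold lower (5.17 to 10.7), so members of 1 family lay at both ends of the group. The family 3 protein Trave1_68149, which KEGG names a xylosidase, was 2.5-fold higher (2.05 to 3.05), and the family 16 protein Trave1_139866 was 2.38-fold higher (2.13 to 2.67). The family 25 protein Trave1_51651, of a family known for lysozymes, measured 92.1 RPKM on poplar, 378 on glucose and 101 on PDA and was 4.1-fold lower (3.48 to 4.86). Of 46 glycoside hydrolases without a family number, 3 were higher and 5 lower. The most abundant, Trave1_37895, which KEGG names a chitinase, measured 4648 RPKM on poplar, 5117 on glucose and 1177 on PDA, 1.1-fold lower (1.07 to 1.13).

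**Figure D3:**
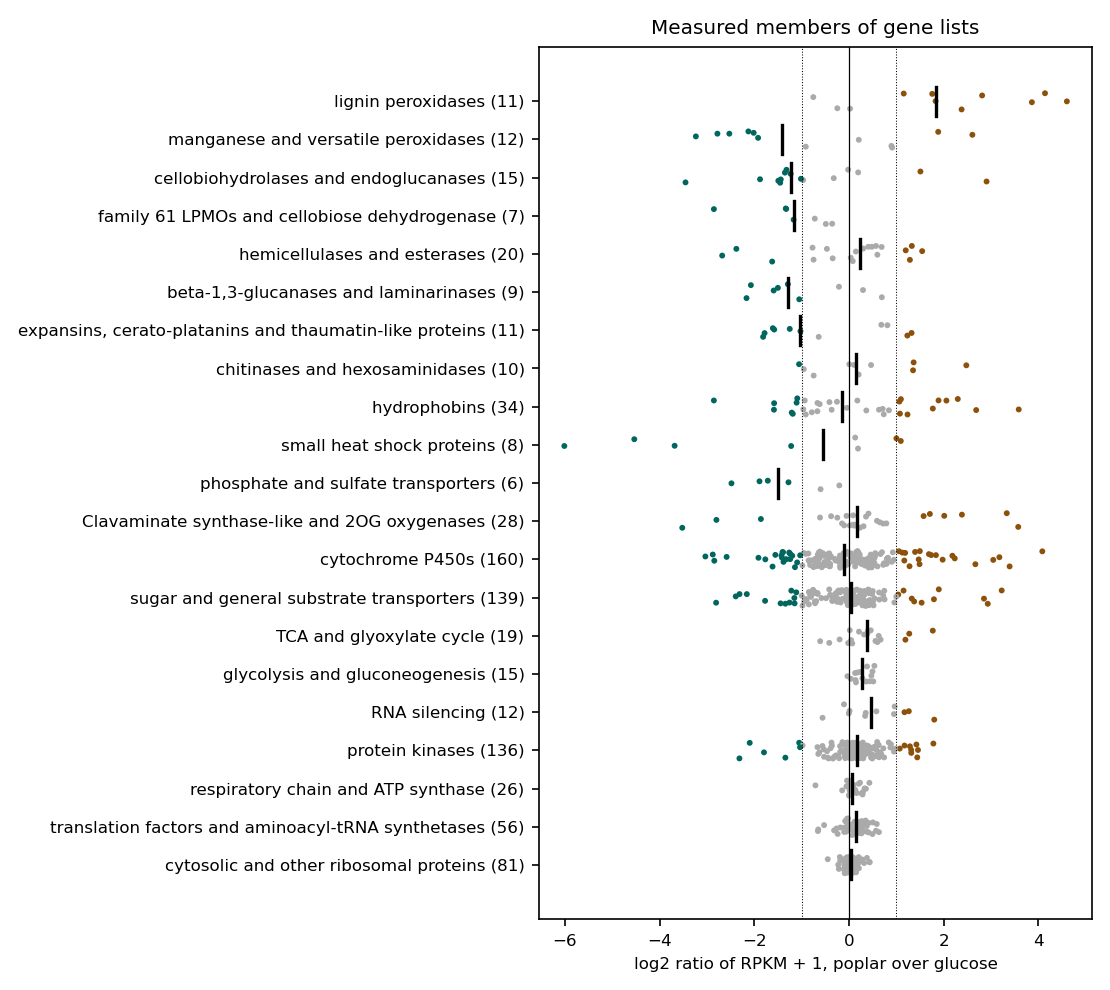
log2 ratio of RPKM + 1, poplar over glucose, of each measured member of 21 gene groups, with the number measured in parentheses. Points past 2-fold (dotted lines) are brown where higher and green where lower on poplar, and black bars mark medians: the lignin peroxidase median is 1.83, that of the β-1,3-glucanases −1.29, and the points of the ribosomal proteins lie within 0.45 of 0.

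The fungus also remodels its own wall of β-1,3-glucan and chitin. Enzymes described as glucan-cutting were mostly lower on poplar. Of 9 β-1,3-glucanases and laminarinases, 0 were higher and 6 lower. Proteins described by a numbered glycoside hydrolase family, such as the higher family 16 protein Trave1_139866, were not counted here. The median log2 ratio was −1.29. Their sums were 760.2 RPKM on poplar, 2039.8 on glucose and 726 on PDA. Laminarinase Trave1_134991 measured 179.5 RPKM on poplar, 808 on glucose and 117 on PDA and was 4.5-fold lower (4.07 to 4.98). Exo-β-1,3-glucanase Trave1_34953 measured 64.7 RPKM on poplar, 275 on glucose and 23.5 on PDA and was 4.25-fold lower (3.82 to 4.74). In both, glucose was the high library, and the levels on poplar were above those on PDA. Trave1_134698, a concanavalin A-like glucanase, was 2.89-fold lower (2.28 to 3.7) on poplar and had its highest level on PDA, at 119 RPKM. The exo-β-1,3-glucanase Trave1_25672 was not called, at 99.2 against 60.9 RPKM. The counts of 0 and 6 held under each scaling, pseudocount and minimum tried.

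Thaumatin-like proteins, some of which bind or cut β-1,3-glucan, and cerato-platanins, small secreted proteins that bind chitin, were grouped with expansins. Of 11 measured members, 2 were higher and 6 lower. The median was −1.02. With a pseudocount of 5 the lower count was 4 and the median −0.45. The most abundant, thaumatin-like Trave1_31631, measured 293 RPKM on poplar, 1030.2 on glucose and 133 on PDA and was 3.52-fold lower (3.22 to 3.86). Trave1_59341, also thaumatin-like, measured 29.5 RPKM on poplar, 90.2 on glucose and 14.5 on PDA and was 3.05-fold lower (2.29 to 4.12). The 2 higher members were both cerato-platanins. Trave1_116538 measured 755 RPKM on poplar, 321 on glucose and 51.3 on PDA and was 2.35-fold higher (2.08 to 2.67), whereas Trave1_29705 had 28 against 10 reads. Cerato-platanin Trave1_70672 was 3.21-fold lower (1.76 to 6.18).

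Chitin was represented by its hydrolases and by the synthases. Of 10 chitinases and hexosaminidases, 3 were higher and 1 lower. Their median was 0.16, beside sums of 1677 RPKM against 948. The sums leave out Trave1_37895, described as a glycoside hydrolase and named a chitinase by KEGG. Its level was above these sums in each library, and it was under 2-fold lower on poplar. By KEGG names 5 of 32 were higher and 5 lower. Chitinase Trave1_132063 measured 119 RPKM on poplar, 20.5 on glucose and 17.4 on PDA and was 5.79-fold higher (4.31 to 7.93). The lysozyme-like Trave1_142394, which carries most of the sum, measured 999 RPKM on poplar, 391 on glucose and 317 on PDA and was 2.56-fold higher (2.38 to 2.75). Both were highest on poplar. N-acetylhexosaminidase Trave1_136246 was 2.72-fold higher (1.96 to 3.83), while another, Trave1_175817, was 2.1-fold lower (1.77 to 2.51). None of the 4 chitin and glucan synthases, which lay down the wall, was called, with ratios between 0.15 and 0.41. Chitin synthase 2, Trave1_158352, measured 1158 RPKM on poplar, 924 on glucose and 929 on PDA.

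**Figure D4:**
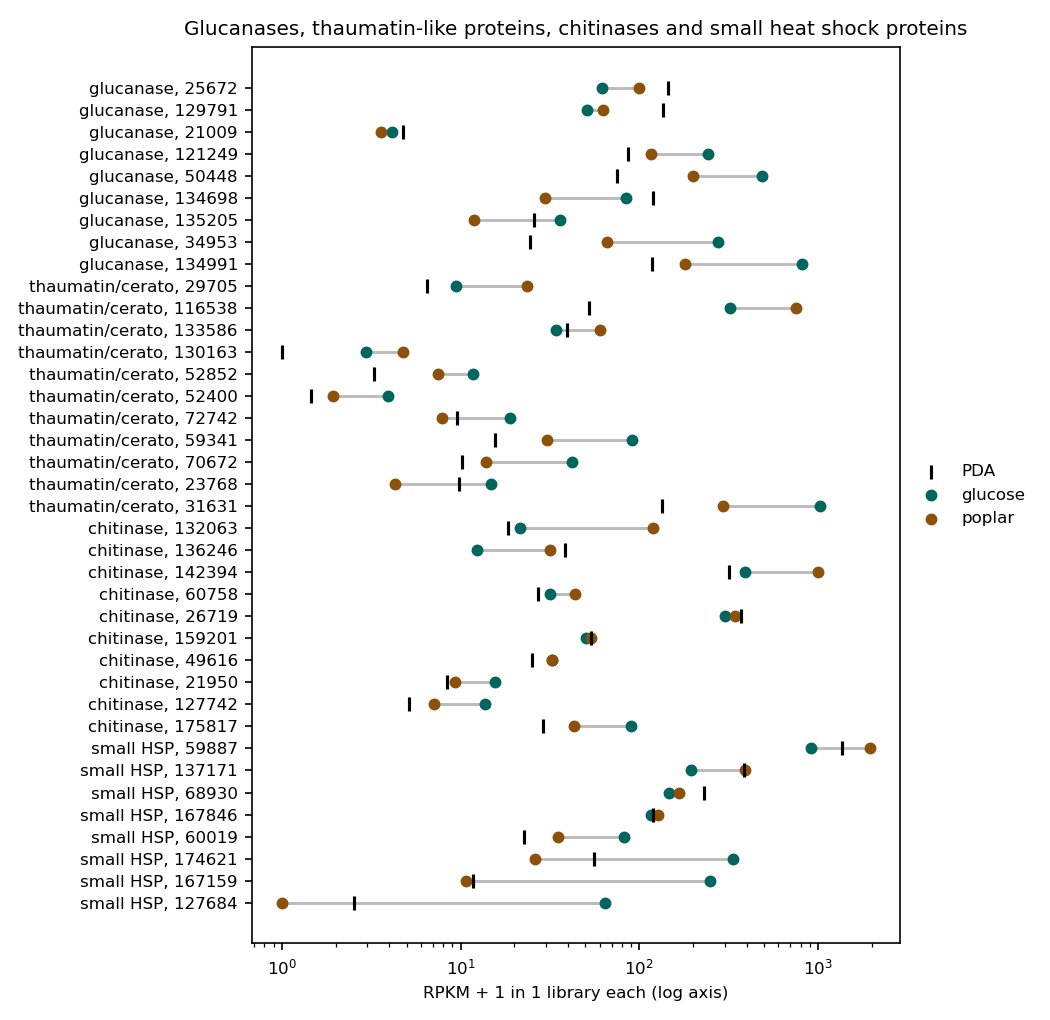
Level of each measured member of 4 groups, as RPKM + 1 on a log axis, with 1 library per medium: poplar in brown, glucose in green, PDA as a black bar, genes by identifier. Of 9 glucanases 6 have the poplar point at least 2-fold to the left, 3 of 10 chitinases have it at least 2-fold to the right, and the small heat shock proteins hold both the widest gap and members within 2-fold.

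Hydrophobins, small surface-active proteins that coat aerial hyphae, were called in both directions. Of 34 measured, 10 were higher and 7 lower, which is 50% either way beside 16.4% of all gene models. Their median was −0.15, beside sums of 17535 RPKM on poplar, 19907 on glucose and 32433 on PDA. Trave1_53909 measured 3578 RPKM on poplar, 555 on glucose and 2428 on PDA and was 6.45-fold higher (5.86 to 7.1), the sixth largest gain in RPKM of all gene models. Trave1_24774 measured 504 RPKM on poplar, 102 on glucose and 201 on PDA and was 4.95-fold higher (3.94 to 6.29). Trave1_50452 measured 1022 RPKM on poplar, 3067 on glucose and 655 on PDA and was 3.0-fold lower (2.79 to 3.23). The first and second of these were highest on poplar and the third on glucose. The member of highest level in both libraries, Trave1_129761, was under 2-fold, at 3881 RPKM on poplar, 5166 on glucose and 16185 on PDA. With at least 20 reads required, 7 were higher and 3 lower of 20, so 14 of the measured hydrophobins had fewer reads than that in both libraries.

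Lectins and proteins named for fruiting had 4 higher and 0 lower of 7. The median was 1.13. Fungal immunomodulatory proteins are small lectin-like proteins known for their action on mammalian immune cells. Of the 3, Trave1_166333 measured 57.8 RPKM on poplar, 8.89 on glucose and 3.34 on PDA and was 6.5-fold higher (3.33 to 14.2), and Trave1_28605 measured 325 RPKM on poplar, 148 on glucose and 93.4 on PDA and was 2.2-fold higher (1.83 to 2.65). Trave1_87696 was not called, at 48.02 against 79.5 RPKM. A ricin B-like lectin, Trave1_24415, was 2.87-fold higher (1.46 to 6.06), and the mannose-binding lectin Trave1_163636 was 2.48-fold higher (2.03 to 3.03). Aegerolysin Trave1_53190, of a family first named from developing mushrooms of Agrocybe, measured 152 RPKM on poplar, 236 on glucose and 508 on PDA. Among the 3 mating pheromone genes, 2 were higher and 1 was lower. Trave1_45033 measured 544 RPKM on poplar, 128 on glucose and 112 on PDA and was 4.25-fold higher (3.31 to 5.53). The other higher gene had the largest log2 ratio of the group, 2.34. The lower gene, Trave1_49829, had 10 against 34 reads and was 3.55-fold lower (1.72 to 8.07). The group median was 2.08. By KEGG names the group grew to 7 genes with the same counts called, and its median was 0.07.

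Aspartic proteases are active in acid surroundings, such as wood-rotting fungi make. Of 41 drawn by description, with secretion not checked, 6 were higher and 5 lower. Their median was 0.02, and it was −0.06 after median-of-ratios scaling, but their summed level was 8172 RPKM on poplar and 5017 on glucose. Aspergillopepsin Trave1_40551 measured 2163 RPKM on poplar, 445 on glucose and 1638 on PDA and was 4.86-fold higher (4.53 to 5.21). The acid protease Trave1_64609 measured 537 RPKM on poplar, 125 on glucose and 620.2 on PDA and was 4.28-fold higher (3.86 to 4.76). Trave1_167025 measured 44.7 RPKM on poplar, 5.51 on glucose and 8.45 on PDA and was 8.11-fold higher (5.02 to 13.8). Glucose was the low library for each of these 3, and Trave1_64609 was higher on PDA than on poplar. The aspartic proteinase Trave1_37643 was at the other end, with 3 reads on poplar, 146 on glucose and 20 on PDA.

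Serine proteases split in the same way. Of 41, 5 were higher and 6 lower, and the sums were near equal, at 6479.9 RPKM on poplar and 6446 on glucose. The S53 family holds acid-acting tripeptidyl peptidases. Its member Trave1_114402 measured 179 RPKM on poplar, 49.97 on glucose and 63.1 on PDA and was 3.58-fold higher (3.08 to 4.17), and Trave1_152880 measured 589 RPKM on poplar, 247 on glucose and 589 on PDA and was 2.38-fold higher (2.22 to 2.55). Trave1_129910, also of S53, measured 50.99 RPKM on poplar, 251 on glucose and 195 on PDA and was 4.92-fold lower (4.28 to 5.67). Metalloprotease Trave1_164315 was the 1 higher gene among 32 metalloproteases and exopeptidases, at 222 RPKM on poplar, 73.2 on glucose and 6.88 on PDA, 3.03-fold higher (2.59 to 3.56).

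Lipases and carboxylesterases, which cut the ester bonds of fats and related compounds, had 5 higher and 2 lower of 29, and in the group widened by KEGG names 10 of 87 were higher and 10 lower. The lipase Trave1_30051 measured 484 RPKM on poplar, 169 on glucose and 150.5 on PDA and was 2.86-fold higher (2.56 to 3.21). Carotenoid ester lipases made up 3 of the 5 higher genes. Trave1_72564 measured 156 RPKM on poplar, 36.97 on glucose and 44.7 on PDA and was 4.22-fold higher (3.55 to 5.04), Trave1_48300 was 5.47-fold higher (4.31 to 7.01) with reads over only 42.6% of its length, and Trave1_48263 was 2.51-fold higher (1.65 to 3.9). Trave1_168948, of the same name, was 3.05-fold lower (2.07 to 4.59). Lysophospholipase Trave1_170175 measured 18.9 RPKM on poplar, 125 on glucose and 25.8 on PDA and was 6.59-fold lower (4.86 to 9.1), with reads over 43.5% of its length on poplar and 48.05% on glucose.

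Most transporters of phosphate and sulfate were lower on poplar. Of 6 phosphate and sulfate transporters, 0 were higher and 4 lower. The median log2 ratio was −1.50. Phosphate transporter Trave1_169969 measured 21.7 RPKM on poplar, 82.98 on glucose and 16.01 on PDA and was 3.83-fold lower (3.07 to 4.82). Trave1_150610 had 17 reads on poplar against 114 on glucose and was 7.01-fold lower (4.19 to 12.5). The sulfate permeases Trave1_46127 and Trave1_165794 were 3.57-fold lower (2.6 to 4.97) and 2.56-fold lower (1.91 to 3.49). The PDA levels of these 4 were near the poplar levels, and glucose was the high library. The transporter of highest level, Trave1_150983, was under 2-fold, at 297 RPKM on poplar, 342 on glucose and 327 on PDA. When KEGG names were added to the descriptions, the list grew to 21 genes with 0 higher and 5 lower, and its median was −0.13.

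Phosphatases, phosphodiesterases and T2 ribonucleases, enzymes that cut phosphate ester bonds, had 1 higher and 7 lower of 27. Even so, the median was 0.10 and the sums were 3781 RPKM on poplar and 3721 on glucose. Ribonuclease T2 Trave1_55444 measured 16.1 RPKM on poplar, 100.1 on glucose and 37.6 on PDA and was 6.22-fold lower (4.47 to 8.85). The phosphodiesterase Trave1_44687, which KEGG names a glycerophosphodiester phosphodiesterase, measured 64.4 RPKM on poplar, 247 on glucose and 23.7 on PDA and was 3.84-fold lower (3.24 to 4.57). Among genes described as phosphoglycerate mutase-like, with the KEGG name acid phosphatase, Trave1_126933 was 3.38-fold lower (2.46 to 4.7) and Trave1_71850 was 2.58-fold lower (2.36 to 2.81). Trave1_173495 was the 1 higher member, at 679.8 RPKM on poplar, 147 on glucose and 459 on PDA, 4.61-fold higher (4.2 to 5.07).

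Sugar and other general substrate transporters were called about as often as all gene models, with 10 higher and 12 lower of 139. The median was 0.03, which turned to −0.03 after median-of-ratios scaling. The most abundant, Trave1_168780, measured 1050.2 RPKM on poplar, 2022 on glucose and 989.9 on PDA, 1.93-fold lower (1.86 to 2.0). Trave1_41903 measured 29.99 RPKM on poplar, 3.06 on glucose and 7.53 on PDA and was 9.79-fold higher (5.53 to 18.9), and Trave1_132492 measured 30.9 RPKM on poplar, 3.43 on glucose and 16.7 on PDA and was 9.03-fold higher (5.38 to 16.2). Trave1_35601 measured 8.37 RPKM on poplar, 64.5 on glucose and 4.7 on PDA and was 7.71-fold lower (5.4 to 11.3), and Trave1_59952 was 5.08-fold lower (4.25 to 6.12). The substrates of these transporters are not given by the descriptions.

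Of 35 amino acid and peptide transporters, 3 were higher and 4 lower. Oligopeptide transporters stood on both sides. Trave1_171171 measured 39.4 RPKM on poplar, 165 on glucose and 29.5 on PDA and was 4.19-fold lower (3.64 to 4.82), and Trave1_155969 was 3.7-fold lower (3.07 to 4.48). Trave1_39317 measured 59.1 RPKM on poplar, 25.4 on glucose and 77.2 on PDA and was 2.33-fold higher (1.92 to 2.82). The ammonium transporter Trave1_152715 was under 2-fold, at 120.5 against 117 RPKM. Of 17 genes of metal uptake, 2 were higher and 2 lower. The copper transporter Trave1_30547 measured 249 RPKM on poplar, 106 on glucose and 229.7 on PDA and was 2.35-fold higher (1.96 to 2.83), and the zinc and iron transporter Trave1_72289 was 2.56-fold higher (1.86 to 3.55). The 2 lower genes were iron permeases, the channel partner of Fet3 in yeast. Trave1_170164 was 5.77-fold lower (3.92 to 8.75) and Trave1_73094 was 2.32-fold lower (1.78 to 3.05), each with reads over less than 50% of its length. Iron permease FTR1, Trave1_73708, measured 19.2 against 33.1 RPKM. Aquaporin-like Trave1_113984, a water or glycerol channel, measured 33.4 RPKM on poplar, 135 on glucose and 87.9 on PDA and was 4.03-fold lower (3.21 to 5.1), while the aquaporin-like gene of highest level, Trave1_43743, measured 745 against 761 RPKM.

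The Clavaminate synthase-like oxygenases had a higher summed level on poplar than on glucose. These are iron enzymes that use 2-oxoglutarate, and KEGG names the 4 given here after a plant gibberellin oxidase. Of 28, 6 were higher and 3 lower, and their sums were 4784 RPKM on poplar, 1782 on glucose and 3452 on PDA. Trave1_54300 measured 1643 RPKM on poplar, 137 on glucose and 639 on PDA and was 11.99-fold higher (10.8 to 13.3). Trave1_54302, the most abundant, measured 1812 RPKM on poplar, 448 on glucose and 1647 on PDA and was 4.04-fold higher (3.8 to 4.29). Trave1_134073 measured 181 RPKM on poplar, 17.1 on glucose and 147 on PDA and was 10.6-fold higher (7.93 to 14.5). Glucose was the low library in each of these 3. Trave1_159083 had the reverse pattern, at 15.5 RPKM on poplar, 189 on glucose and 20.5 on PDA, and was 12.1-fold lower (9.01 to 16.7). The pair Trave1_54300 and Trave1_54302 gave most of the sum on poplar, and their substrates are not given by the descriptions.

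Cytochrome P450s, heme monooxygenases that white-rot fungi hold in large numbers, had 20 higher and 21 lower of 160. The median was −0.10, and over members of at least 10 RPKM it was 0.15, with 17 higher and 12 lower of 91. The P450 of highest level on poplar, Trave1_152563, measured 1069 RPKM on poplar, 378 on glucose and 1180.4 on PDA and was 2.83-fold higher (2.67 to 2.99). Trave1_131753 measured 426 RPKM on poplar, 50.6 on glucose and 270.2 on PDA and was 8.4-fold higher (7.32 to 9.69). Trave1_128244 measured 121 RPKM on poplar, 10.6 on glucose and 121 on PDA and was 11.4-fold higher (8.37 to 15.9). In these 3 genes the levels on poplar and PDA lay well above that on glucose. Trave1_21783 measured 179 RPKM on poplar, 551 on glucose and 378 on PDA and was 3.07-fold lower (2.83 to 3.34), and Trave1_126365 had 7 against 70 reads.

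Dehydrogenases of the GroES type, which include alcohol dehydrogenases and quinone reductases, had 3 higher and 13 lower of 40. The median was −0.21. Most of the lower genes had low levels: over members of at least 10 RPKM, 3 of 20 were higher and 3 lower, at a median of 0.10. Trave1_74890, an alcohol dehydrogenase, measured 67.3 RPKM on poplar, 17.4 on glucose and 6.9 on PDA and was 3.88-fold higher (2.85 to 5.36), while Trave1_38007 measured 51.4 RPKM on poplar, 125 on glucose and 11.02 on PDA and was 2.43-fold lower (2.0 to 2.96). Of 54 aldo/keto and aryl-alcohol reductases, which reduce aldehydes, 6 were higher and 9 lower. Trave1_67920 measured 71.5 RPKM on poplar, 271 on glucose and 77.8 on PDA and was 3.79-fold lower (3.19 to 4.52), and D-xylose reductase Trave1_161839 measured 8.82 RPKM on poplar, 41.9 on glucose and 3.25 on PDA and was 4.75-fold lower (3.03 to 7.73). Both had their highest level on glucose. Of 14 quinone and old yellow enzyme reductases, 1 was higher and 1 lower, and by KEGG names 3 of 48 were higher and 8 lower. Trave1_69342 was 10.6-fold lower (5.12 to 25.3) with 8 reads on poplar, and the FMN-linked oxidoreductase Trave1_158509 was 2.53-fold higher (1.69 to 3.88). Glutathione transferases, which attach glutathione to toxic compounds, had 1 higher and 3 lower of 15. The median was −0.46. The 1 higher member of the group had 2 reads on poplar and 0 on glucose, and by KEGG names 2 of 46 were higher and 11 lower. The 2 most abundant, Trave1_63077 at 1133 against 1370.2 RPKM and Trave1_168902 at 741 against 686 RPKM, were under 2-fold. None of the 17 aldehyde dehydrogenases that reached 10 RPKM was called. Aromatic compound dioxygenase Trave1_116234, which KEGG names a catechol dioxygenase that opens the aromatic ring, measured 371 RPKM on poplar, 168 on glucose and 374 on PDA and was 2.2-fold higher (1.91 to 2.54).

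The core of glucose breakdown differed by under 2-fold between poplar and glucose, and most of its genes were slightly higher on poplar. None of 15 genes of glycolysis and gluconeogenesis was called, with ratios between −0.03 and 0.54. Of these ratios 14 were above 0 and 1 was below. The median was 0.28, beside 0.08 over all gene models. By KEGG names 0 of 23 were higher and 1 lower. Hexokinase Trave1_157025 measured 146 against 103 RPKM, and fructose-bisphosphate aldolase Trave1_31386 measured 589 against 406 RPKM. Fructose-1,6-bisphosphatase Trave1_70842 and phosphoenolpyruvate carboxykinase Trave1_69551, enzymes of glucose synthesis, measured 191 against 195 RPKM and 273 against 246 RPKM. In the tricarboxylic acid and glyoxylate cycles 3 of 19 genes were higher and 0 lower, or 15.8% beside 16.4% of all gene models. The median was 0.39. Isocitrate lyase Trave1_166513, the first enzyme of the glyoxylate bypass, measured 179.6 RPKM on poplar, 51.96 on glucose and 196 on PDA and was 3.46-fold higher (2.98 to 4.02). Malate synthase Trave1_56596, the second enzyme of the bypass, went the other way, at 11.9 against 18.7 RPKM, 1.57-fold lower (1.1 to 2.26). Aconitate hydratase Trave1_170804 measured 544 RPKM on poplar, 238 on glucose and 431 on PDA and was 2.29-fold higher (2.15 to 2.43), and a 2-oxoglutarate dehydrogenase gene, Trave1_58362, was 2.53-fold higher (2.0 to 3.24). For Trave1_166513 and Trave1_170804 glucose was the low library, and PDA lay nearer to poplar.

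Oxalate and formate are small acids that white-rot fungi make and break down. Of 10 genes 0 were higher and 3 lower, with sums of 1575 RPKM on poplar and 2381 on glucose. NAD-dependent formate dehydrogenase Trave1_56661 carried most of the sum, at 1284 RPKM on poplar, 1943 on glucose and 348 on PDA, and was under 2-fold on the scale of RPKM plus 1, 1.51-fold lower (1.46 to 1.57). The bicupin oxalate decarboxylase Trave1_128779 measured 37.4 RPKM on poplar, 121 on glucose and 23.3 on PDA and was 3.24-fold lower (2.69 to 3.92), and glyoxylate dehydrogenase Trave1_74766 was 3.09-fold lower (2.37 to 4.08). In the pentose and sugar alcohol group, sorbose reductase Trave1_165789 measured 937 RPKM on poplar, 281 on glucose and 179.6 on PDA and was 3.34-fold higher (3.08 to 3.62). The galactose mutarotase-like Trave1_27984, which KEGG names an aldose epimerase, measured 89.5 RPKM on poplar, 455 on glucose and 45.01 on PDA and was 5.09-fold lower (4.48 to 5.79). Xylitol dehydrogenase Trave1_144563, which follows xylose reductase in xylose use, measured 194 against 214 RPKM. Trehalose is a storage and protective sugar of fungi. Trehalose synthase Trave1_28511 measured 665 RPKM on poplar, 325 on glucose and 937 on PDA and was 2.04-fold higher (1.94 to 2.16), and with median-of-ratios scaling it was not called. Trehalose 6-phosphate phosphatase Trave1_153374 measured 111 against 57.2 RPKM.

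In lipid metabolism, 2 of 51 genes for the activation and breakdown of fatty acids were higher and 7 lower. The share called was 17.6%, beside 16.4% of all gene models. The peroxisomal enoyl-CoA hydratase Trave1_150480 measured 64.5 RPKM on poplar, 30.2 on glucose and 20.98 on PDA and was 2.14-fold higher (1.61 to 2.85). The acetyl-CoA synthetase-like Trave1_172884 and Trave1_166752 measured 32.9 RPKM on poplar, 146 on glucose and 101 on PDA and 28.7 RPKM on poplar, 128 on glucose and 41.8 on PDA. They were 4.44-fold lower (3.71 to 5.34) and 4.44-fold lower (3.68 to 5.39). Fatty acid desaturases, which set membrane fluidity, lay on both sides: Trave1_147284 was 3.14-fold higher (1.9 to 5.39) and Trave1_155123 was 3.54-fold lower (2.79 to 4.52). The fatty acid synthase gene Trave1_149851 measured 15.1 against 11.2 RPKM. Of 32 genes of sterol and terpenoid synthesis, 0 were higher and 3 lower, among them phosphomevalonate kinase Trave1_34608, 2.78-fold lower (2.01 to 3.89). Sterol methyltransferase Trave1_74343, the most abundant, measured 1127 RPKM on poplar, 1294 on glucose and 1552 on PDA.

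The machinery of growth was close to equal in the compared libraries. None of 81 ribosomal proteins was called, with ratios between −0.45 and 0.44, and none of 56 translation factors and aminoacyl-tRNA synthetases and none of 26 genes of the respiratory chain and ATP synthase. Their medians were 0.04, 0.15 and 0.06, and after median-of-ratios scaling they were −0.04, 0.08 and −0.02. In the groups widened by KEGG names, 1 of 108 ribosomal, 4 of 111 translation and 1 of 68 respiratory genes were higher, and 0, 1 and 2 were lower. The ribosomal proteins summed to 50278 RPKM on poplar and 48808 on glucose. Elongation factor 1-alpha, Trave1_111000, measured 3465 RPKM on poplar, 2949 on glucose and 3494 on PDA. Of 58 proteasome and ubiquitin genes, 2 were higher and 0 lower. Polyubiquitin Trave1_115457, a stress-responsive tag for protein breakdown, had one of the 10 largest gains in RPKM, at 4458 RPKM on poplar, 2606 on glucose and 7155 on PDA, but was under 2-fold, 1.71-fold higher (1.67 to 1.75). Among 37 genes of histones and DNA replication, 2 were higher and 1 lower, a share of 8.11% beside 16.4% of all gene models. By KEGG names 5 of 122 were higher and 7 lower. Trave1_69928, the small subunit of the ribonucleotide reductase that supplies deoxyribonucleotides, was 2.24-fold higher (1.58 to 3.22), and replication factor A Trave1_28117 was 2.14-fold higher (1.75 to 2.63). With a pseudocount of 5 neither was called, and after median-of-ratios scaling the latter was not. The lower gene, an ATP-dependent DNA ligase, Trave1_61978, had 8 against 35 reads. Alpha-tubulin Trave1_117084 measured 1347 RPKM on poplar, 733 on glucose and 1409 on PDA and was 1.84-fold higher (1.75 to 1.93), whereas a second alpha-tubulin, Trave1_70113, measured 763 against 779 RPKM.

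**Figure D5:**
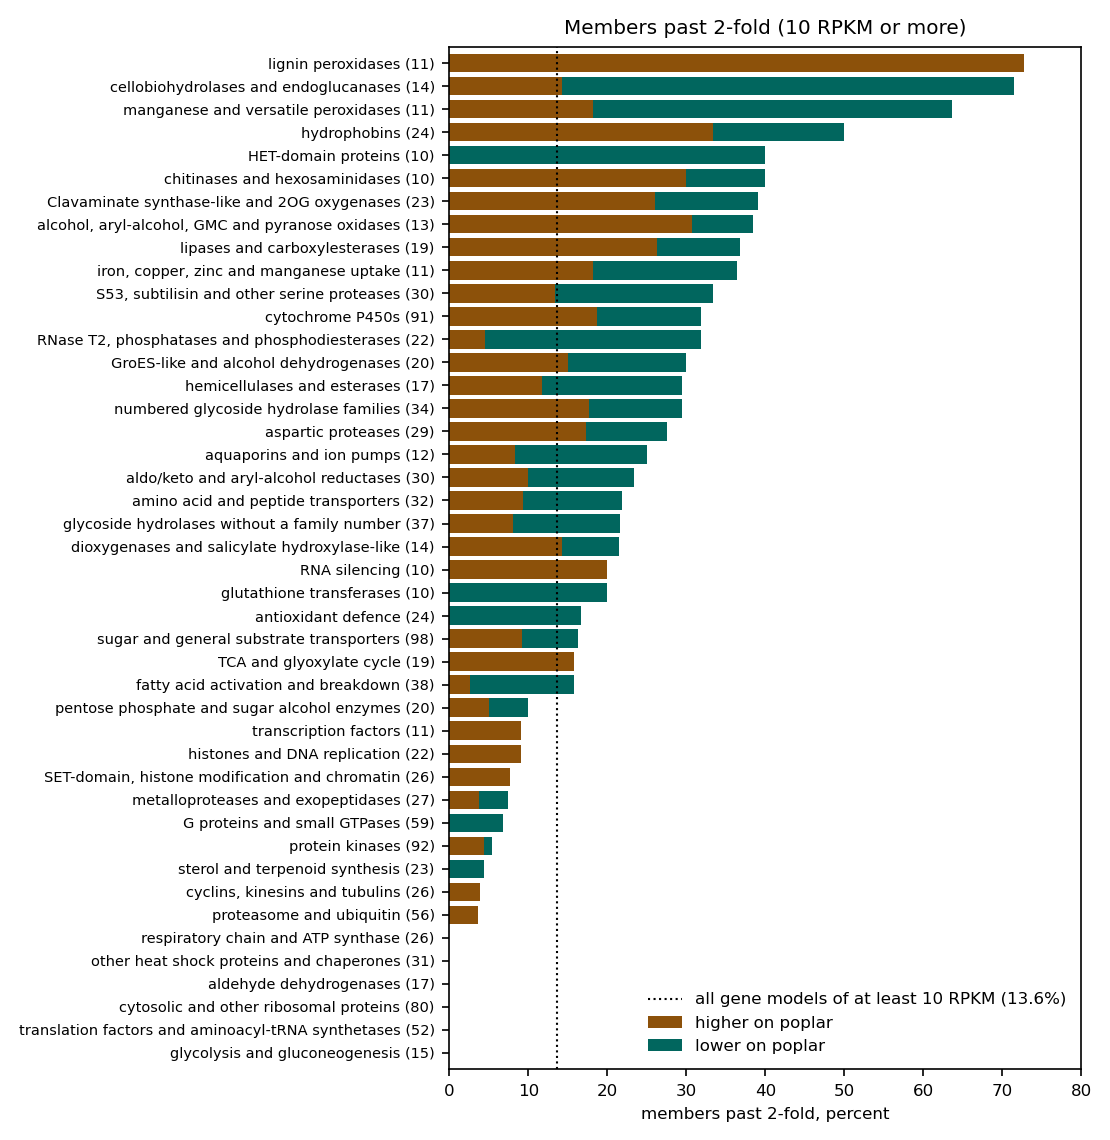
Percent of the members of each gene group that were at least 2-fold higher (brown) or lower (green) on poplar, for groups with at least 10 members of at least 10 RPKM in the higher library (number in parentheses). The dotted line marks the 13.6% over all gene models of at least 10 RPKM. Lignin peroxidases, cellulases and manganese peroxidases have the longest bars, and glycolysis, ribosomal proteins, translation factors and the respiratory chain have no bar.

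Small heat shock proteins, ATP-independent chaperones that hold unfolding proteins, diverged from each other. Of 8 measured, 2 were higher and 4 lower. Their median was −0.54, beside sums of 2706 RPKM on poplar and 2099 on glucose. Trave1_59887 measured 1954 RPKM on poplar, 915 on glucose and 1365 on PDA and was 2.14-fold higher (1.99 to 2.29). Trave1_137171, described as heat shock protein 30, measured 389 RPKM on poplar, 194 on glucose and 385 on PDA and was 2.01-fold higher (1.79 to 2.25), just past the threshold, and it was not called with a pseudocount of 5 or under either other scaling. Trave1_174621 measured 25.2 RPKM on poplar, 335 on glucose and 54.7 on PDA and was 13.3-fold lower (9.74 to 18.6), and Trave1_167159 measured 9.77 RPKM on poplar, 248 on glucose and 10.8 on PDA and was 25.4-fold lower (15.5 to 44.9). Trave1_60019 was 2.37-fold lower (1.65 to 3.44). Membership by KEGG names added 3 genes, of which 2 were higher, and moved the median to 0.13. The members that were lower on poplar were low on PDA too, so that glucose was the high library for each of them. Larger chaperones were near equal, with 1 higher and 0 lower of 34. Hsp70 Trave1_28053 measured 502 against 712 RPKM, and Hsp90 Trave1_143243 measured 62.01 against 107 RPKM.

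Antioxidant enzymes had 0 higher and 5 lower of 28, or 17.9% beside 16.4% of all gene models. In the group widened by KEGG names, 5 of 50 were higher and 7 lower. The median was −0.14. Catalase Trave1_152668, which breaks down hydrogen peroxide, and manganese superoxide dismutase Trave1_175978 were the most abundant. Catalase measured 3709.7 RPKM on poplar, 3679.6 on glucose and 1385 on PDA, and the dismutase measured 4196 RPKM on poplar, 3499.6 on glucose and 4086 on PDA. Neither was called. The 5 lower genes were described as thioredoxin, which reduces protein disulfides, or as thioredoxin-like. Thioredoxin Trave1_33016 measured 255 RPKM on poplar, 549 on glucose and 169 on PDA and was 2.15-fold lower (1.84 to 2.53). Trave1_150138 measured 61.7 RPKM on poplar, 145 on glucose and 71.1 on PDA and was 2.35-fold lower (1.9 to 2.92), Trave1_72028 measured 41.3 RPKM on poplar, 95.2 on glucose and 17.7 on PDA and was 2.31-fold lower (1.78 to 3.01), and Trave1_56550 had 11 against 60 reads.

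Among regulatory genes, those of RNA silencing were mostly under 2-fold, and those called were higher on poplar. Silencing uses Dicer-type ribonucleases to cut double-stranded RNA, RNA-dependent RNA polymerases to copy it and argonaute proteins to act on the target. Of 12 genes, 3 were higher and 0 lower, or 25% beside 16.4% of all gene models either way. The median was 0.47. The argonaute-like Trave1_70483 measured 62.3 RPKM on poplar, 17.2 on glucose and 36.2 on PDA and was 3.63-fold higher (2.98 to 4.45). The RNA polymerases Trave1_120313 and Trave1_140181 were 2.53-fold higher (2.02 to 3.18) and 2.62-fold higher (1.75 to 4.0). The ribonuclease III genes Trave1_163270 and Trave1_149177 measured 85.8 against 85.1 RPKM and 31.4 against 31.5 RPKM. Another argonaute, Trave1_174638, measured 27.3 against 29.5 RPKM.

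Heterotrimeric G proteins pass signals from membrane receptors. Of 64 G proteins and small GTPases, 1 was higher and 4 lower, and each of these was described as a G-protein alpha subunit. By KEGG names 5 of 129 were higher and 12 lower. Trave1_53929 measured 14.02 RPKM on poplar, 40.2 on glucose and 28.2 on PDA and was 2.87-fold lower (2.14 to 3.89). Trave1_25471 measured 12.9 RPKM on poplar, 36.7 on glucose and 25.5 on PDA and was 2.85-fold lower (2.12 to 3.88), and Trave1_27115 measured 43.2 RPKM on poplar, 99.7 on glucose and 68.1 on PDA and was 2.31-fold lower (1.91 to 2.79). Trave1_69529 was 2.32-fold lower (1.73 to 3.15), and the higher gene had 6 reads on poplar against 1 on glucose. Further alpha subunits were nearer to equal, among them Trave1_29781 at 122 against 229 RPKM. Protein kinases had 9 higher and 6 lower of 136, or 11.0% beside 16.4% of all gene models. CHK1-type kinase Trave1_66486, which acts at DNA damage checkpoints, was 3.08-fold higher (1.79 to 5.56), and a calcium- and calmodulin-dependent kinase by its KEGG name, Trave1_23896, was 2.09-fold lower (1.76 to 2.49). Of 74 HET-domain proteins, a domain known from vegetative incompatibility in ascomycetes, 8 were higher and 14 lower. Only 10 of them reached 10 RPKM, with 0 higher and 4 lower. Of 36 chromatin genes, 4 were higher and 0 lower, or 11.1% beside 16.4% of all gene models. By KEGG names 5 of 87 were higher and 0 lower. The type B histone acetyltransferase Trave1_119462 was not called, at 226 RPKM on poplar, 114 on glucose and 306 on PDA, 1.98-fold higher (1.76 to 2.24).

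The gene models of highest level were short or had no functional description. Trave1_137702, described as part of a CHK1 checkpoint-like protein, at 168 bases, had 44262 RPKM on poplar, 75825 on glucose and 90902 on PDA. Trave1_137696, at 150 bases, had 22608 RPKM on poplar, 35131 on glucose and 38894 on PDA. The highest ranks of both libraries also held Trave1_137913, Trave1_137701, Trave1_41373 and Trave1_41357. Each of these 6 was lower on poplar than on glucose by under 2-fold and had its highest level on PDA. Outside this set, Trave1_109473 measured 6099 RPKM on poplar, 12921 on glucose and 6454 on PDA and was 2.12-fold lower (2.08 to 2.16), and Trave1_50457 measured 2902 RPKM on poplar, 6995 on glucose and 9215 on PDA and was 2.41-fold lower (2.29 to 2.54). In the other direction Trave1_28784 had the largest gain, at 10726 RPKM on poplar, 2845 on glucose and 15523 on PDA, 3.77-fold higher (3.64 to 3.9). Trave1_136699 measured 5047 RPKM on poplar, 1203 on glucose and 1883 on PDA and was 4.2-fold higher (3.97 to 4.43), and Trave1_163877 measured 9140.1 RPKM on poplar, 4477 on glucose and 9465 on PDA and was 2.04-fold higher (1.96 to 2.12). Of these 3, Trave1_136699 was highest on poplar, whereas the others were slightly or clearly higher on PDA.

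Undescribed gene models made up 6098 of those measured, and 18.8% of them were called, against 13.2% of the 4538 with a functional description. At 4-fold, 136 gene models, or 1.28%, were higher and 194, or 1.82%, were lower, and 82 and 126 of these were undescribed. Trave1_26234 measured 182 RPKM on poplar, 3.85 on glucose and 27.9 on PDA and was 47.3-fold higher (25.5 to 99.2). Trave1_141952 measured 726 RPKM on poplar, 27.2 on glucose and 1445 on PDA and was 26.7-fold higher (19.2 to 38.1). Both had glucose as the low library, although only Trave1_26234 was also low on PDA relative to poplar. Among those lower on poplar, Trave1_131611 had 2 reads on poplar, 180 on glucose and 21 on PDA and was 94.1-fold lower (25.7 to 783). Trave1_48213 measured 27.4 RPKM on poplar, 1096 on glucose and 63.8 on PDA and was 39.97-fold lower (28.6 to 57.6). Trave1_80430 had 2, 153 and 7 reads in that order. For these 3 gene models glucose was the high library and PDA was closer to poplar.

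Among described genes outside the groups above, the metallo-dependent hydrolase Trave1_167222 measured 14.3 RPKM on poplar, 186 on glucose and 22.4 on PDA and was 13.02-fold lower (10.04 to 17.1). An alpha/beta-hydrolase, Trave1_163296, measured 21.1 RPKM on poplar, 215 on glucose and 149.7 on PDA and was 10.2-fold lower (7.81 to 13.5), and another, Trave1_116731, was higher with 34 reads on poplar against 1 on glucose. The unclassified peroxidase Trave1_43747 had the largest ratio of the described genes, with a log2 ratio of 5.39, and its level on PDA was 128 RPKM. Of the measured gene models, 172 had no read on glucose and 141 no read on poplar. The undescribed Trave1_109995 had the most reads of the former, 18 on poplar. Of the latter, Trave1_127684, a small heat shock protein, had 78 reads on glucose and 2 on PDA. The undescribed Trave1_80645, Trave1_85597 and Trave1_76336 had 27, 25 and 24 reads on glucose and 0 in both other libraries, where 0 reads allow a level of up to 3 reads.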

How the data were processed

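RNA enriched with oligo(dT) beads was sequenced from 1 mycelial culture per medium. Per the file headers, the deposited files hold for each gene model a count of uniquely assigned reads, an RPKM, a coverage in percent of its length, a description of the closest protein and KEGG names. The authors' RPKM is normalised to the reads assigned to gene models, which was checked on the deposited counts. Cufflinks 2.0.1 is listed in the submitters' processing notes, with no role stated. No aligner, genome build or strand setting for counting is given in the sources used. Gene models are named by the identifiers in the files, which give no coordinates.

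The libraries were joined on the gene identifier, with an absent gene model set to 0. A gene model was measured at 1 RPKM in either compared library. The log2 ratio of RPKM plus 1 was called at 2-fold. Printed folds are plain RPKM ratios with exact conditional 95% intervals from the reads, which cover counting error only. No fold is printed against 0 reads. Groups of genes were drawn by words in the protein descriptions, so a group holds what its descriptions say and its members were not checked by sequence. The counting intervals and the recovery of changed genes were tested on simulated data that held counting error alone, as the intervals assume. Recovery was tried for 4-fold changes in gene models above a minimum of expected reads. Spread between cultures was not simulated, so the simulation cannot speak to it. With 1 library per medium no count model could be fitted.

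The rule for named genes took, for each group, the member of highest level and the 3 highest and 3 lowest ratios among members of at least 10 RPKM in the higher library. Over all gene models it took the 10 highest levels in each library, the 10 largest gains and losses of RPKM, the 10 highest and lowest ratios, also among described gene models, and up to 10 each way with 0 reads on one side. Others were named after their values were seen: Trave1_21783, Trave1_29781, Trave1_33016, Trave1_43848, Trave1_48263, Trave1_54041, Trave1_59341, Trave1_60019, Trave1_61978, Trave1_66247, Trave1_69529, Trave1_69551, Trave1_70113, Trave1_71850, Trave1_131753, Trave1_134001, Trave1_134188, Trave1_134698, Trave1_134927, Trave1_140181, Trave1_143649, Trave1_144563, Trave1_150878, Trave1_152668 and Trave1_168288. The members and groups were chosen with earlier results of these data known. Alternatives were a pseudocount of 0.1 or 5, a minimum of 10 RPKM, no minimum, a minimum of 20 reads, another scaling by median-of-ratios factors or by totals without the top 20 gene models, a 4-fold threshold, and group membership by KEGG names. Calculations used Python 3.11.15, pandas 2.3.3, numpy 2.4.6, scipy 1.17.1 and matplotlib 3.10.9.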

Additional observations from a re-analysis of the deposited data

How the results depend on the processing

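No paired analysis was possible because each medium had 1 library. The counts of 861 gene models higher and 884 lower on poplar depended on the settings. They were 321 and 468 with a pseudocount of 5, 420 and 547 at a minimum of 10 RPKM, 472 and 564 at a minimum of 20 reads, and 136 and 194 at 4-fold. With a pseudocount of 0.1 they were 1105 and 1072. The median log2 ratio was 0.0617 with a pseudocount of 5, 0.0062 after median-of-ratios scaling, with 771 higher and 964 lower, and 0.066 without the 20 gene models with most reads, with 850 and 898. Named gene ratios were recomputed under the 2 scalings alone. These shift each log2 ratio of RPKM by the same amount, −0.078 or −0.015, so no gene called at 2-fold could turn direction. No group median past 2-fold changed sign under any setting, but smaller medians did, and only some of these are given beside the groups. Of the group counts, 862 stayed within 1.5 times the main count and 146 did not, and of the group medians 429 moved by less than 0.1 and 75 by more. Widening groups by KEGG names also gave 7 higher and 1 lower of 40 genes of the tricarboxylic acid and glyoxylate cycles, 1 and 5 of 76 of sterol synthesis, 3 and 7 of 71 of fatty acid breakdown, 5 and 3 of 42 of metal uptake, 3 and 1 of 61 larger chaperones, 5 and 2 of 189 of proteasome and ubiquitin, and 1 and 4 of 49 metalloproteases and exopeptidases. The cause was not tested. At this depth a gene model with fewer than 20 reads in both libraries has a wide counting interval, and the spread between cultures of 1 medium is unknown.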

Other observations

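Of the 4591 gene models with at least 100 reads in the higher library, 83 had reads over less than 50% of their length in that library, against a median coverage of 93.1%. In this set 17 were called, or 20.5%, of which 2 were higher and 15 lower on poplar, while 12.6% of all 4591 were called. Their part in the results was not tested. The 2 higher ones included carotenoid ester lipase Trave1_48300.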
